A study of Mus musculus with 18 samples.

Results

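The miRNAs described here carry the late numbers of the mouse catalogue. They are the entries named mmu-miR-N with N of 3000 or more, without miR-3072 and miR-6540, whose mean normalized count over a set of libraries was 10 or more. Under that rule 136 of the 662 miRNAs kept at this mean were members in the set of mouse embryonic fibroblasts (MEFs) with differing miR-17~92 levels. In the MEF set with added miR-290~295, 236 of 840 were members, and in splenic B cells 104 of 476 were. In all, 258 of the 1359 miRNAs listed were members in at least 1 set, and 68 were members in all 3. Members were thus selected on their name and their mean level, so levels are given as a description. The mean was taken over all groups of a set, so a member high in 1 group could pass through that group alone. In the 4 MEF comparisons described below, 13, 18, 18 and 27 members did not reach a mean of 10 in both groups compared.

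The 18 small RNA libraries all carry the strain label Eu-myc mice. In 3 MEF groups of 3 libraries each, the cells differed in the miR-17~92 cluster: overexpressed (OV), floxed (fl/fl) and deleted (d/d). A further pair of groups with 3 libraries each were both d/d MEFs, and received either an Empty plasmid or overexpressed miR-290~295. Splenic B cells gave 1 library each for d/d, fl/fl and OV. The driver of the transgene and of Cre, the number of animals and the culture behind each replicate are not stated in the labels, so p-values measure the spread between libraries, which may be technical. The OV and fl/fl groups are each compared with the same d/d libraries, and OV and d/d with the same fl/fl libraries.

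MicroRNAs are cut from RNA hairpins by Drosha and Dicer and loaded into Argonaute, where the seed, bases 2 to 8 of the mature strand, pairs with target transcripts. Numbers are given in the order of submission to the catalogue, so late numbers belong mostly to miRNAs found by deep sequencing, many of them weakly expressed and known only from rodents. Many lie in introns of protein-coding genes. Some are mirtrons, whose hairpin is a whole short intron released by splicing in place of Drosha. Others derive from small nucleolar RNAs (snoRNAs) or from repeats.

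The sequences below are those of some members that the comparisons describe. They are printed 5′ to 3′ from RefSeq's miRNA table (GRCm38), with the seed in capitals, and 226 of the 258 members were found in it. The first set holds members that share the run GAGAUGGCU, and the pair miR-3473b and miR-3473e also shares the seed GGCUGGA.
miR-3473b: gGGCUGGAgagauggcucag
miR-3473e: gGGCUGGAgagauggcucgua
miR-3473a: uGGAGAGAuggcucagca
miR-5128: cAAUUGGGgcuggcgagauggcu
These 4 were the members with GAGAUGGCU, and 0 of the other kept miRNAs with a sequence held it. The run was picked after the values of its members were seen, so these counts are a description only. miR-3473b lies at chr10:41670774-41670793 on the plus strand, antisense to Ccdc162, and miR-3473e at chr5:31667296-31667316 on the minus strand in an intron of Rbks. The miR-3473a locus is chrX:162874920-162874937 in an intron of Syap1, and that of miR-5128 is chr2:37688212-37688234 in an intron of Strbp, both on the minus strand. The mature sequence of miR-3473b matched annotated transcripts of 343 genes exactly, that of miR-3473a 146 and that of the member miR-3470b 546. The miR-3473e and miR-5128 sequences matched 0. These were the 3 members with an exact match in more than 5 genes, against 0 of the other kept miRNAs.

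The second set holds the members whose locus or host gene the comparisons return to.
miR-3070-5p: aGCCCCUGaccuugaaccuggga
miR-3070-2-3p: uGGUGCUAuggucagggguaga
miR-3535: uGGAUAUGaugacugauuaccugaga
miR-3068-5p: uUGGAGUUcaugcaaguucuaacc
miR-3068-3p: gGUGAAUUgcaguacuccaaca
miR-3081-3p: uUGCGCUCcgaucucugagcugg
miR-3081-5p: gACUGGAGcuuggagcggugagc
miR-7213-5p: aCUGGGUCucuugagguagc
miR-7025-5p: cGUGAGCUgaagcugguggcuccc
miR-3095-3p: uGGACACUggagagagagcuuuu
miR-6238: uUAUUAGUcaguggaggaaaug
miR-7683-5p: uUCCGUGUuucgucugaccacu
miR-7683-3p: uGGAAAGGuggaacacggaac
miR-6974-5p: gUGAGGCAgcaagagauugggggu
The miR-3070 hairpins lie on the plus strand of chromosome 12, with miR-3070-5p at chr12:109587959-109587981 and chr12:109588608-109588630 and miR-3070-2-3p at chr12:109588648-109588669. They sit inside the imprinted Dlk1-Dio3 region, which carries one of the largest miRNA clusters of the mouse. miR-3535 lies at chr1:86352062-86352087 on the minus strand, within the snoRNA Gm24148 in an intron of Ncl, the gene of the nucleolar protein nucleolin. The miR-3068 hairpin lies in an exon of the noncoding gene Gm29362 and is itself annotated as a snoRNA, with miR-3068-5p at chr12:87437724-87437747 and miR-3068-3p at chr12:87437685-87437706 on the minus strand.

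Several host genes are receptors or ligands. miR-3081-3p (chr16:44558058-44558080) and miR-3081-5p (chr16:44558092-44558114) lie on the minus strand in an intron of Boc, a Hedgehog co-receptor. miR-7213-5p (chr15:79999007-79999026, minus strand) lies in an intron of Pdgfb, a growth factor for mesenchymal cells. miR-7025-5p (chr5:75176836-75176859, plus strand) overlaps coding sequence of Pdgfra, a receptor of that growth factor family. miR-3095-3p (chr4:58441023-58441045, minus strand) lies in an intron of Lpar1, a receptor for lysophosphatidic acid. miR-7683-5p (chr1:171641879-171641900) and miR-7683-3p (chr1:171641840-171641860) lie on the minus strand in an intron of Slamf7, a surface receptor of lymphocytes and plasma cells. miR-6974-5p (chr17:35204534-35204557, minus strand) lies in an intron of Lta, the cytokine lymphotoxin alpha, and its hairpin spans that intron from end to end. miR-6238 (chr7:53891796-53891817, minus strand) is intergenic.

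By position, 72.1% of the members with a sequence were intronic, against 44.6% of the other kept miRNAs, and 7.08% against 28.4% were intergenic. Another miRNA gene lay within 10 kb of 13 members (5.75%) and of 292 other miRNAs (55.9%), so few members belonged to clusters. A hairpin that filled an intron at both ends, the layout of a mirtron, was found for 4 members (miR-6944-3p in Dbn1, miR-6974-5p in Lta, miR-7068-3p in Cherp and miR-7091-5p in Dnase1l1) and for 7 others. A hairpin at 1 end of an intron of at most 300 bases was found for 39 members (17.3%) against 11 others (2.11%). Members were richer in G and C, with a median of 55% against 47.8%, at the same median length of 22 bases. The mature strand began with U in 50.4% of members and 37.0% of others. Only 17 members (7.52%) shared a seed with any other kept miRNA, against 178 others (34.1%), and 6 members shared theirs with a miRNA of a lower number. The miR-3102-5p seed is that of miR-702-5p, for example, and the miR-6967-5p seed is that of miR-149-3p.

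Members were scarce. Their median mean level was 26.8 normalized counts in the miR-17~92 MEFs, 36.3 in the miR-290~295 MEFs and 34.2 in B cells, against 333, 634 and 291 for the other kept miRNAs. Between 72.5% and 83.7% of members had a mean under 100, and 7, 11 and 1 members reached 1000. At the threshold, miR-7025-5p (10.2), miR-3076-3p (10.2) and miR-7028-5p (10.5) stood just inside in the miR-17~92 set, and miR-7070-5p (9.97), miR-3103-3p (9.89) and miR-3057-3p (9.78) just outside. In the miR-290~295 set miR-7689-3p (10.03), miR-7042-5p (10.2) and miR-7057-5p (10.2) were just inside, with miR-6995-5p (9.82), miR-6958-3p (9.71) and miR-6976-5p (9.61) outside. In B cells miR-3103-5p (10.2), miR-7054-5p (10.3) and miR-3970 (10.3) were inside, with miR-5100 (9.79), miR-5615-5p (9.58) and miR-5622-3p (9.53) outside. Late-numbered entries under the minimum numbered 357, 294 and 173.

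One member outweighed the rest in MEFs. miR-5099, which has no entry in the sequence table, averaged 36214 normalized counts in the miR-17~92 set and 179318 in the miR-290~295 set. Members together took 0.29% to 0.368% of all counts in OV MEFs, 0.255% to 0.271% in fl/fl and 0.294% to 0.304% in d/d. In Empty libraries they took 0.375% to 0.466%, below the 0.539% to 0.572% of the miR-290~295 libraries. Without miR-5099 the ranges were 0.0882% to 0.113% and 0.103% to 0.129% in the 2 MEF sets. In B cells miR-5099 averaged 500.4, and miR-3535 led with 20195. There members took 0.416% of counts in the d/d library and 0.212% and 0.209% in the fl/fl and OV libraries.

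**Figure D1:**
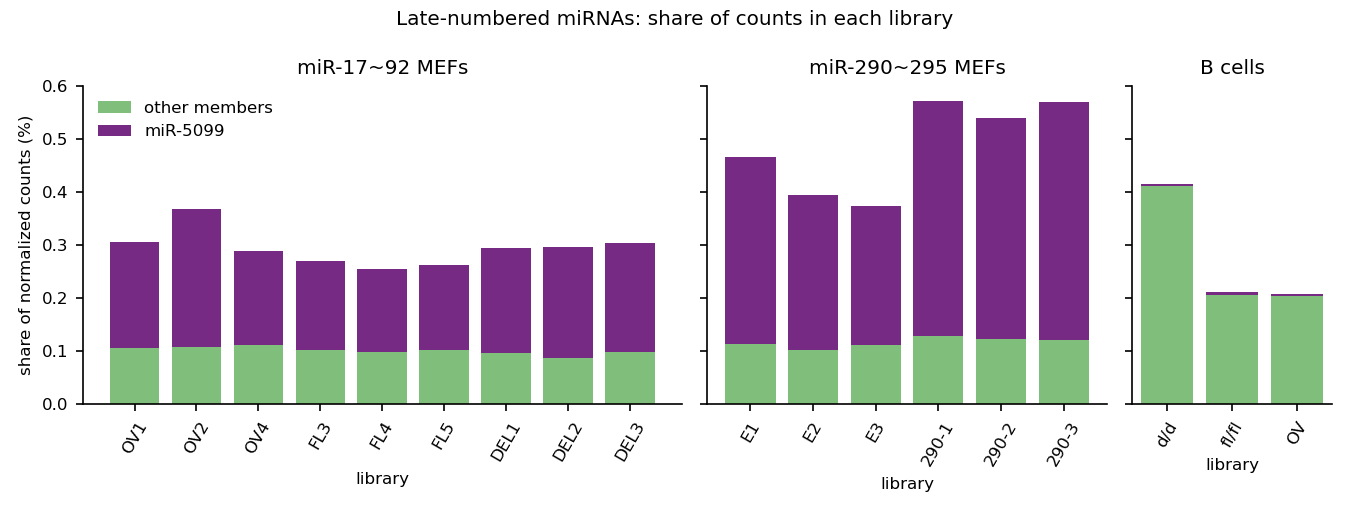
Share of all normalized counts taken by the members in each library (percent), 1 bar per library, with miR-5099 stacked on the sum of the other members. The miR-290~295 libraries sit between 0.539% and 0.572%, all above the Empty libraries, and the d/d B cell library, at 0.416%, stands above the fl/fl and OV ones.

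Libraries held 17191892 to 24920911 reads in the miR-17~92 MEF set, 43164128 to 58911475 with miR-290~295 or Empty and 10203586 to 10612256 in B cells. The summed miR-17-5p and miR-92a-3p level followed the labels, with 368122 to 447790 normalized counts in OV MEFs, 63896 to 93520 in fl/fl and 1363 to 1647 in d/d. The d/d B cells had 31174, the fl/fl cells 1096320 and the OV cells 4397730. The same sum was 616 to 938 in the Empty libraries and 127 to 165 with miR-290~295, so these d/d groups also differed in what was left of the cluster's signal. The miR-290~295 list reached 8363 to 12191 in its libraries against 22.3 to 43.9 in Empty. All 7 fibroblast markers were detected in every MEF library, at 21.3% to 30.6% of counts in the miR-17~92 set, with the highest shares in d/d, and 22.7% to 29.0% in the other set, most of it miR-21a-5p. Of these markers miR-143-3p averaged 2993490 normalized counts in Empty and 1571290 with miR-290~295, and miR-145a-5p 11481 and 4509. The 3 epithelial markers, of which 2 were listed, summed to 198 to 204 in fl/fl MEFs, 54.6 to 59.5 in OV and 26.9 to 35.1 in d/d. The 5 markers of B cells and blood took 0.0413% to 0.0773% of counts in MEFs of the miR-17~92 set against 1.35% to 2.18% in B cells, where miR-142a and miR-181a-5p carried them and miR-150-5p stood at only 8.73, 62.2 and 71.0 in d/d, fl/fl and OV. The part of these shifts in the results was not tested, and in such bulk libraries fewer cells of a type and less RNA per cell cannot be told apart.

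Raising miR-17~92 above the floxed level went with higher miR-3473b, miR-3473e and miR-5128. These share the run GAGAUGGCU, which was picked after the values were seen. Levels of both arms of miR-3068 and of miR-3535 were lower in OV. Of the 136 members, 12 were higher and 6 lower in OV than in fl/fl MEFs (limma, Benjamini-Hochberg adjusted p under 0.05). Over all 662 miRNAs tested 15.6% were higher and 15.7% lower. Under each of 3 scalings (the deposited size factors, the spike-ins and re-centred medians) 8 members were higher and 3 lower, against 12.5% and 6.65% of all miRNAs. The median log2 difference was -0.07 for the members and -0.07 for all miRNAs.

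Among the called members miR-3473b and miR-3473e moved furthest. miR-3473b stood at 548, 632 and 381 normalized counts in the OV libraries, 170, 144 and 169 in fl/fl and 97.4, 127 and 109 in d/d. Every OV library lay above every fl/fl library, and every fl/fl library above every d/d library. The log2 difference of OV from fl/fl was 1.66 ± 0.20 (SE, n = 3 per group, limma adjusted p = 0.000369). miR-3473e stood at 485, 529 and 298 in OV, 144, 119 and 147 in fl/fl and 48.3, 93.7 and 89.3 in d/d, in the same order without overlap. It rose by 1.63 ± 0.29 (adjusted p = 0.00295). The sequences of these miRNAs differ only at the 3′ end, so reads could be split between them, and their values are uncertain as separate measurements.

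miR-5128, with the same 9-base run at its 3′ end and another seed, stood at 608, 657 and 437 in OV, 234, 279 and 237 in fl/fl and 240, 285 and 304 in d/d. Here only the OV group stood apart, at a log2 difference of 1.16 ± 0.18 (adjusted p = 0.00204). miR-3473a, chosen after its values were seen for its shared run, was scarce, with 11.9, 8.01 and 18.7 in OV against 8.19, 5.73 and 19.0 in fl/fl, which overlapped.

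Both arms of miR-3068 and miR-3535, which lie on annotated snoRNAs, were lower in OV. miR-3535 stood at 1133, 1380 and 1379 in OV, 1807, 2014 and 2147 in fl/fl and 1315, 1188 and 1354 in d/d. The fl/fl libraries were the highest, and OV fell by 0.62 ± 0.13 on the log2 scale (adjusted p = 0.00671). miR-3068-5p stood at 1081, 696 and 756 in OV, 1235, 2623 and 1823 in fl/fl and 753, 804 and 819 in d/d, with the fl/fl libraries again on top. Its log2 difference was -1.12 ± 0.26 (adjusted p = 0.00861). The other arm, miR-3068-3p, stood at 291, 334 and 371 in OV, 543, 596 and 555 in fl/fl and 484, 442 and 437 in d/d, a log2 difference of -0.77 ± 0.14 for OV (adjusted p = 0.00302). Of the 6 members on annotated small RNAs in this set, these 3, from 2 hairpins, were called lower, against 15.7% of all 662 miRNAs. The other 3 were not called, namely miR-6516-5p (-0.76, adjusted p = 0.0575), miR-3084-5p (-1.16, adjusted p = 0.0912) and miR-3084-3p (-0.22, adjusted p = 0.694). Of these, miR-6516-5p lies on a small Cajal body RNA and not on a snoRNA. The epithelial marker miR-200b-3p was likewise highest in fl/fl MEFs, with means of 156 in fl/fl, 25.9 in OV and 13.3 in d/d, and its part in these values was not tested.

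Other members higher in OV included the intergenic miR-12182-3p, with 112, 137 and 196 counts against 45.0, 43.5 and 54.8 in fl/fl (log2 difference 1.58 ± 0.22, adjusted p = 0.000918). miR-3105-3p, from an intron of the synaptic scaffold gene Shank2, stood at 36.7, 38.9 and 47.2 against 16.4, 10.3 and 17.91 (1.43 ± 0.26, adjusted p = 0.00306). miR-6539 stood at 224, 292 and 220 against 143, 99.7 and 130 (0.98 ± 0.18, adjusted p = 0.00302). The groups did not overlap in any of these 3.

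The intronic miR-3102 hairpin gives 4 listed products, and all of them were higher in OV. miR-3102-5p.2-5p rose by 0.60 (adjusted p = 0.0225), miR-3102-3p.2-3p by 1.16 (0.019), miR-3102-5p by 0.93 (0.0159) and miR-3102-3p by 0.70 (0.0403), the first and last named after their values were seen. miR-3102-3p.2-3p stood at 92.3, 87.0 and 79.1 in OV against 61.4, 24.1 and 36.9 in fl/fl. Its call and that of miR-3102-5p were lost without either the FL4 or the FL5 library, and the calls of miR-3102-5p.2-5p and miR-3102-3p with re-centred medians.

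Among the lower members, the Boc-hosted miR-3081-3p stood at 290, 352 and 358 in OV and 571, 504 and 492 in fl/fl, without overlap. Its log2 difference was -0.65 ± 0.15 (adjusted p = 0.0101), and 0.0561 with spike-in scaling. miR-12194-3p (log2 difference -0.64, adjusted p = 0.0338) and miR-6997-5p (-0.87, adjusted p = 0.0474) were called lower but lost the call under several other settings. The most abundant member, miR-5099, stood at 36620, 51786 and 33468 in OV and 32051, 31205 and 31219 in fl/fl, and was not called (0.34).

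**Figure D2:**
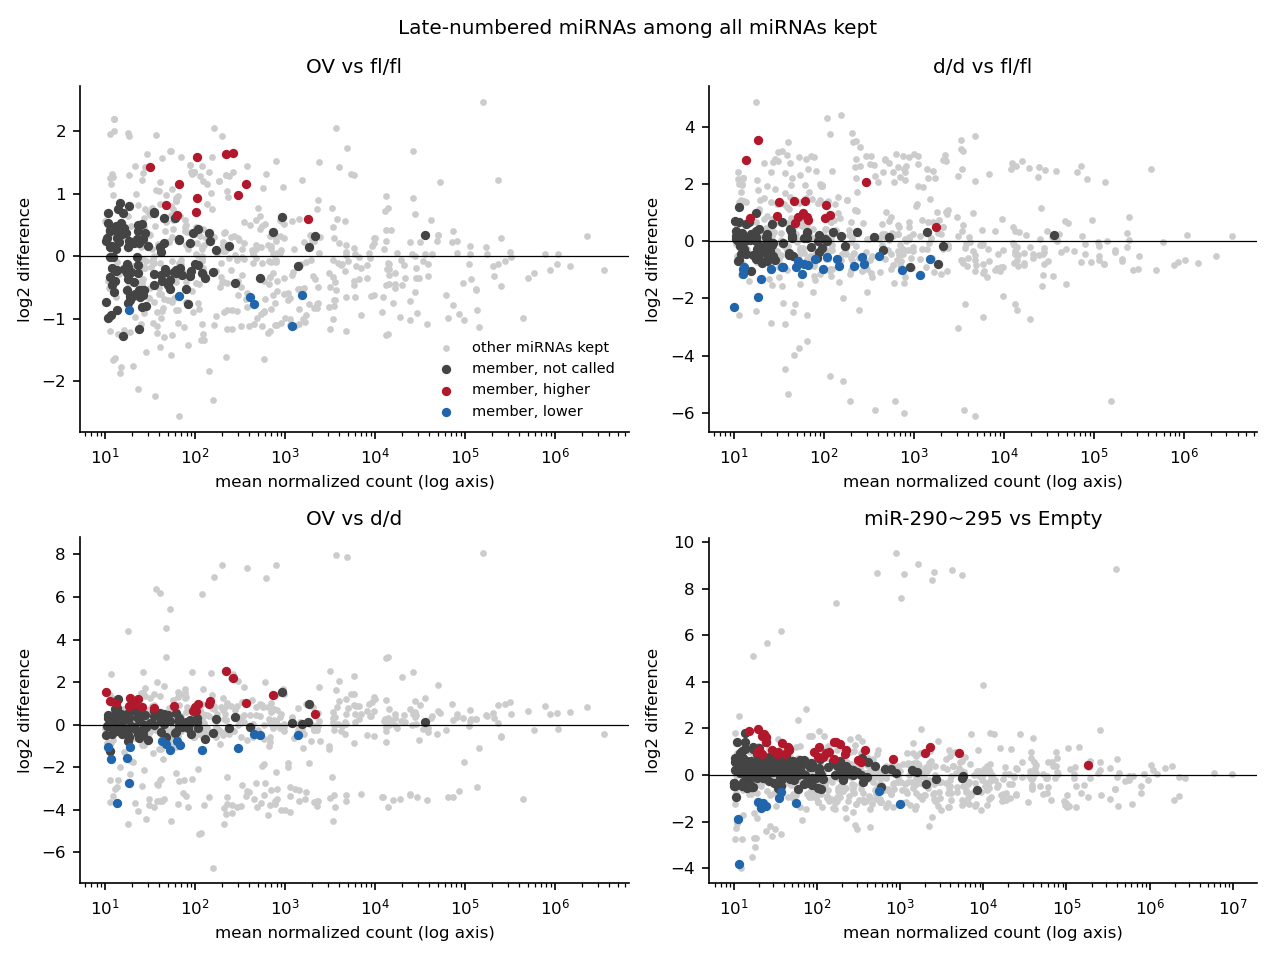
Log2 difference of each kept miRNA in the 4 MEF comparisons (vertical axis, log2 of normalized count + 1) against its mean normalized count (log axis), with other kept miRNAs in light grey, members not called in dark grey and members called higher or lower in red or blue. Most members lie at means under 100, and their median differences are -0.07, -0.09, 0.16 and 0.29 from the first comparison to the last.

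Loss of miR-17~92 went with higher levels of the miR-3070 pair from the chromosome 12 cluster, of miR-6539, and of the intronic miR-6399 and miR-6992-5p. The members hosted by the growth factor gene Pdgfb and its receptor gene Pdgfra, miR-7213-5p and miR-7025-5p, fell, as did miR-3068-5p and miR-3970. In d/d against fl/fl MEFs 17 of 136 members were higher and 26 lower, against 30.7% and 27.6% of all miRNAs. Under each of the 3 scalings 7 were higher and 26 lower, against 22.2% and 27.6%. Among the 118 members with a mean of 10 or more in both groups, 15 were higher and 21 lower. Of all 597 miRNAs that met this condition, 180 were higher and 162 lower. The median log2 difference was -0.09 for members and 0.02 for all miRNAs.

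miR-3070-5p stood at 37.0, 35.6 and 62.7 normalized counts in d/d libraries, at 6.14, 0 and 6.72 in fl/fl and at 3.97, 6.87 and 6.59 in OV. miR-3070-2-3p stood at 32.7, 34.9 and 35.1 in d/d, 7.16, 3.44 and 2.24 in fl/fl and 4.96, 2.29 and 0 in OV. In both, the d/d libraries stood far above the other groups, which overlapped. Both passed the minimum mean through d/d alone, with fl/fl means of 4.28 and 4.28 and OV means of 5.81 and 2.42, so their log2 differences of d/d from fl/fl, 3.55 ± 0.70 and 2.85 ± 0.62, are given as a description.

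In d/d against fl/fl the neighbours of the miR-3070 hairpins moved with them. Between Mir770 and Mir410 on chromosome 12, a stretch chosen after these values were seen, 80 other miRNAs were kept, and 78 were higher and 0 lower in d/d than in fl/fl. Their median log2 difference was 2.60, with a range of 1.55 to 4.88. In OV against fl/fl 0 were higher and 38 lower, with a median of -0.92, but 11 were lower with spike-in scaling and 61 with re-centred medians. There miR-3070-5p was at 0.81, above the highest neighbour at 0.21, and miR-3070-2-3p at -0.86, and neither was called. In OV against d/d 0 were higher and 79 lower, with a median of -3.53. The values of the miR-3070 pair in d/d lay within the range of these neighbours.

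Among the rises the lowest adjusted p belonged to miR-6539, at 535, 514 and 521 in d/d against 143, 99.7 and 130 in fl/fl (2.08 ± 0.18, adjusted p = 8.01e-06). With 224, 292 and 220 in OV, this member was lowest at the floxed level and higher in both other groups, with no overlap between any 2 groups. miR-12182-3p, at 103, 131 and 118 in d/d (1.28 ± 0.22, adjusted p = 0.000658), and miR-3105-3p, at 46.2, 35.6 and 36.1 (1.37 ± 0.26, adjusted p = 0.00119), were likewise above fl/fl in both d/d and OV. Both comparisons use the same fl/fl libraries.

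miR-6399, from an intron of the translation initiation gene Eif4g3, stood at 76.1, 62.5 and 68.0 in d/d against 26.6, 19.5 and 30.2 in fl/fl (1.42 ± 0.27, adjusted p = 0.00113). miR-6992-5p, at 1 end of a short intron of the syntaxin gene Stx5a, stood at 83.2, 89.3 and 113 against 26.6, 41.2 and 38.1 (1.42 ± 0.22, adjusted p = 0.00032). miR-7687-5p stood at 84.6, 62.5 and 88.2 against 27.6, 43.5 and 47.0 (0.99 ± 0.25, adjusted p = 0.00659, and 0.0784 with spike-in scaling). The groups did not overlap in these members.

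miR-7213-5p, the Pdgfb member, stood at 7.11, 7.99 and 6.38 in d/d, 18.8, 17.2 and 18.7 in OV and 24.6, 30.9 and 36.9 in fl/fl. The 3 groups were fully separate, and d/d lay below fl/fl by a log2 difference of -1.95 ± 0.27 (adjusted p = 0.000118). miR-7025-5p, the Pdgfra member, stood at 2.84, 2.18 and 2.13 in d/d and 14.3, 12.6 and 20.1 in fl/fl, a log2 difference of -2.28 ± 0.59. Its OV libraries were uneven, at 3.97, 5.72 and 27.5. The d/d means of both, and those of miR-6966-3p and miR-6967-5p, were under 10, so these members passed the minimum mean through other groups. With a mean of only 10.2 over the set, miR-7025-5p barely passed, and its difference is given as a description.

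miR-3970 stood at 390, 362 and 409 in d/d, 791, 678 and 892 in fl/fl and 1008, 912 and 1178 in OV, so its level followed the order of the miR-17~92 groups without overlap. d/d lay below fl/fl by -1.02 ± 0.15 (adjusted p = 0.000244). miR-3068-5p fell by 1.19 on the log2 scale (adjusted p = 0.0024), whereas miR-3068-3p was not called in this comparison. miR-3086-5p, from an intron of the Hsp70 family gene Hspa12a, stood at 13.5, 7.26 and 13.8 in d/d against 29.7, 34.4 and 24.6 (-1.32 ± 0.37, adjusted p = 0.0109). miR-6966-3p (-1.15, adjusted p = 0.0118) and miR-5615-5p (-1.13, adjusted p = 0.0105) were also lower, and miR-6967-5p (-0.97, adjusted p = 0.0443) lost its call under several settings. The miR-3473 names did not move together in d/d against fl/fl. miR-3473b (-0.53, limma adjusted p = 0.0443) and miR-3473e (-0.87, adjusted p = 0.0239) were lower. miR-3473g, named after its values were seen, was higher without overlap (0.75, adjusted p = 0.012).

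**Figure D3:**
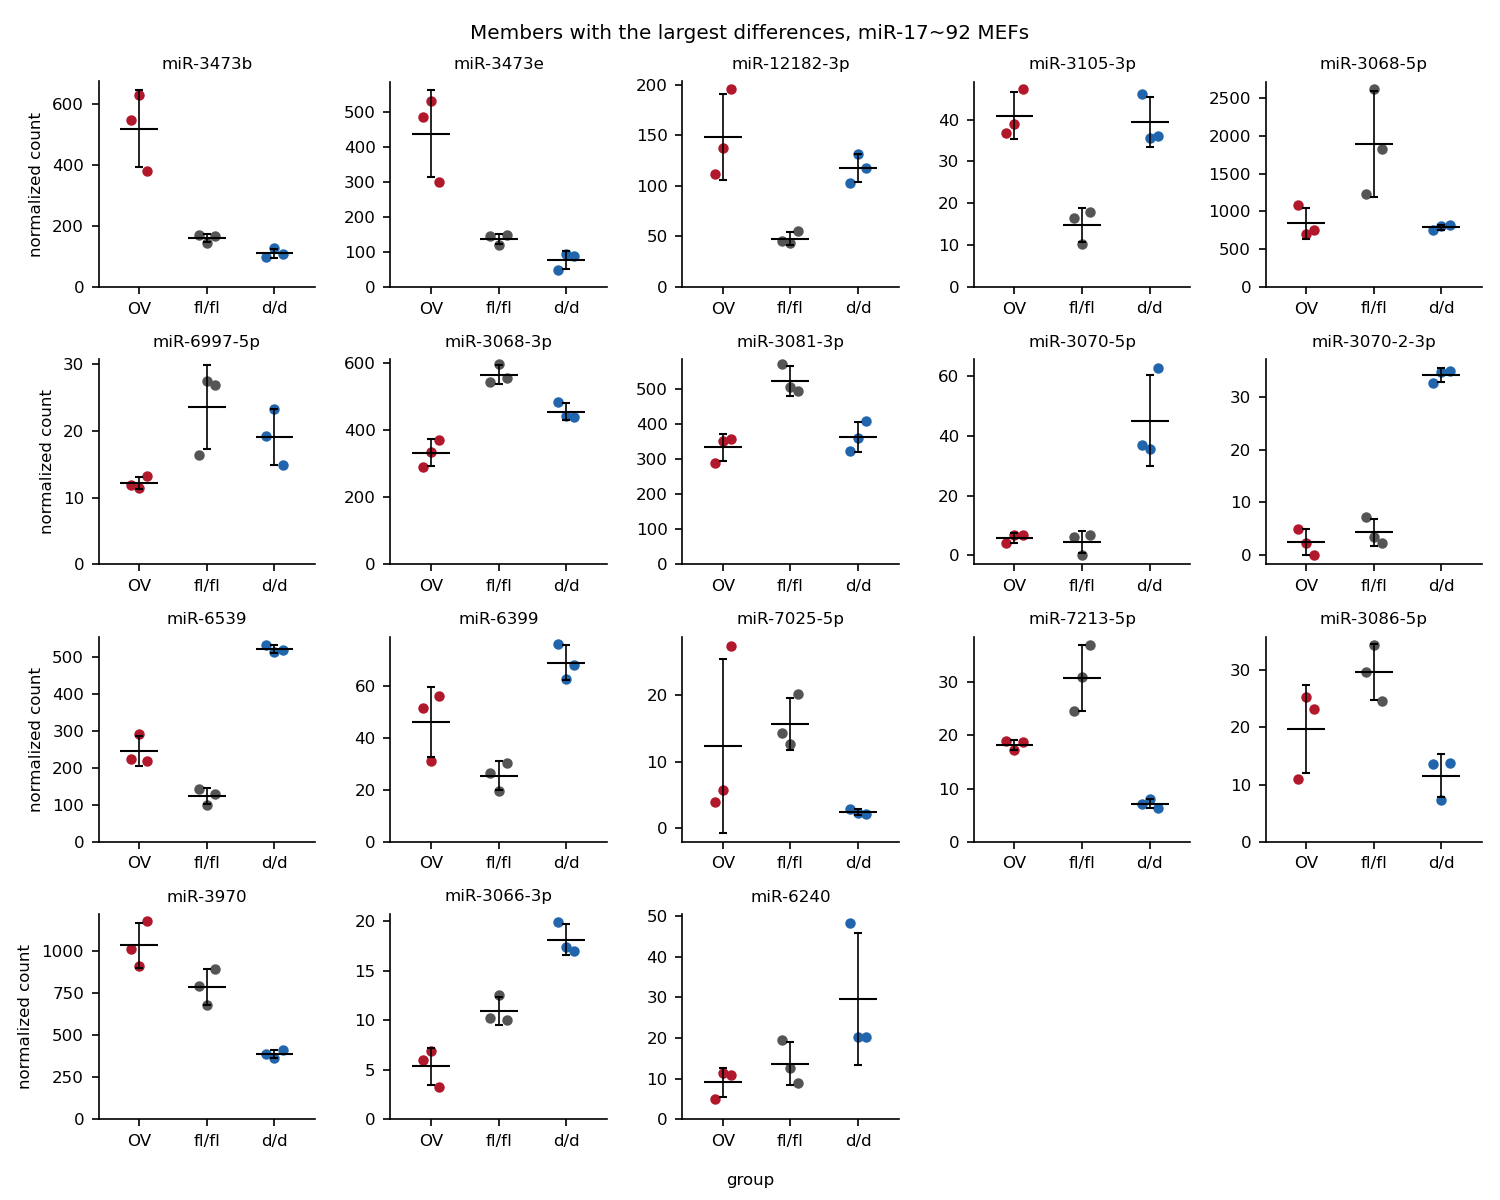
Normalized counts (linear axis, 1 point per library, lines at group means with SD bars, n = 3) of the members with the largest differences among OV, fl/fl and d/d MEFs. miR-3473b and miR-3473e are highest in OV and lowest in d/d, the miR-3070 pair is high in d/d, and both miR-3068 arms are highest in fl/fl.

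Between the extremes of miR-17~92, OV and d/d, miR-3473e, miR-3473b and miR-3970 were higher in OV, and the miR-3070 pair, miR-6539 and miR-8114 were lower. Of 136 members 21 were higher and 16 lower, against 26.7% and 25.7% of all miRNAs. Under each of the 3 scalings 21 were higher and 6 lower, against 26.7% and 18.1%. Among the 118 members with a mean of 10 or more in both groups, 17 were higher and 11 lower. Of all 597 miRNAs that met this condition, 156 were higher and 143 lower. The median log2 difference was 0.16 for members and 0.02 for all miRNAs. This contrast reuses the libraries of the previous comparisons.

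From the values above, miR-3473e was 2.50 ± 0.29 higher in OV (log2, limma adjusted p = 2.8e-05), miR-3473b 2.19 ± 0.20 (6.08e-06), miR-3970 1.41 ± 0.15 (1.84e-05) and miR-7213-5p 1.24 (0.00242). miR-5128 was 1.02 higher (adjusted p = 0.000779). miR-6960-5p stood at 149, 211 and 218 in OV, 162, 156 and 160 in fl/fl and 73.2, 74.8 and 118 in d/d, with d/d apart from both other groups (1.12, adjusted p = 0.00145). miR-7025-5p (1.55, again as a description), miR-6395 (1.18, adjusted p = 0.02) and miR-7015-3p (1.11, adjusted p = 0.0395) lost the call under several settings.

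On the other side, the log2 differences of miR-3070-2-3p and miR-3070-5p, again as a description, were -3.71 ± 0.62 and -2.74 ± 0.70. miR-3066-3p stood at 5.95, 6.87 and 3.30 in OV, 10.2, 12.6 and 10.1 in fl/fl and 19.9, 17.4 and 17.01 in d/d, with no overlap between any 2 groups. It passed the minimum mean through d/d and fl/fl, with an OV mean of 5.37 (-1.63, adjusted p = 0.00181). miR-8114, in the 5′ untranslated exon of the glutamine synthetase gene Glul, stood at 38.7, 28.6 and 31.9 in OV against 85.3, 80.6 and 68.0 in d/d (-1.22, adjusted p = 0.00359). miR-6945-3p, in a 3′ untranslated exon of Pdlim7, the gene of an actin-associated protein, stood at 63.5, 91.6 and 81.3 against 181, 207 and 155 (-1.20, adjusted p = 0.00031). miR-6240 (-1.55, adjusted p = 0.0149) and miR-3095-5p (-1.07, adjusted p = 0.0363) lost the call under several settings.

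Among the abundant members, miR-7688-5p stood at 1039, 1356 and 1186 in OV and 1646, 1689 and 1653 in d/d (-0.49, adjusted p = 0.00894), a difference that was 0.08 and not called with spike-in scaling. miR-3057-5p, in an exon of the adaptor gene Apba3, stood at 2311, 3044 and 2301 in OV and 1628, 1668 and 2113 in d/d (0.50, adjusted p = 0.0214). miR-3968 and miR-3963 were spread widely within groups. miR-3963, for example, stood at 2303, 655 and 1111 in OV, 1619, 452 and 612 in fl/fl and 463, 187 and 796 in d/d, and neither was called in any of the 4 MEF comparisons. miR-3095-3p, the remaining abundant member named by mean level, stood at 435, 531 and 332, 561, 536 and 524, and 599, 572 and 645 in OV, fl/fl and d/d.

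Adding miR-290~295, a cluster of embryonic stem cells, to d/d MEFs went with higher levels of both arms of miR-3095 in Lpar1, of miR-7025-5p in Pdgfra and, depending on the scaling, of miR-6539. Both arms of miR-3081 in Boc, miR-7213-5p in Pdgfb, miR-3070-2-3p and miR-6238 were lower. Of 236 members 37 were higher and 11 lower than with the Empty plasmid, against 16.7% and 22.3% of all 840 miRNAs. Under each of the 3 scalings 11 were higher and 11 lower, against 6.67% and 22.3%. Among the 209 members with a mean of 10 or more in both groups, 33 were higher and 9 lower. Of all 777 miRNAs that met this condition, 123 were higher and 170 lower. The median log2 difference was 0.29 for members and 0.02 for all miRNAs, and spike-in scaling moved the median of all miRNAs by -0.48.

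miR-3095-3p stood at 1625, 1364 and 1194 normalized counts in Empty and 3495, 2750 and 3362 with miR-290~295, without overlap. It rose by 1.20 ± 0.17 on the log2 scale (limma adjusted p = 0.000808). The other arm, miR-3095-5p, stood at 70.9, 120 and 87.3 against 241, 237 and 257 (1.42 ± 0.23, adjusted p = 0.00152). miR-7025-5p stood at 8.997, 8.86 and 11.6 against 39.2, 22.7 and 40.1 (1.66 ± 0.35), again without overlap.

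miR-6539 stood at 1100, 1353 and 1567 in Empty and 2333, 2807 and 2622 with miR-290~295 (0.96, adjusted p = 0.00247), and the difference was 0.48 and not called with spike-in scaling. miR-7117-5p, from an intron of the phosphate transport gene Ank, stood at 11.2, 7.09 and 3.88 against 45.6, 21.7 and 27.0 (1.98 ± 0.45). miR-7079-3p, from an intron of the ribosomal protein gene Rpl13, stood at 7.87, 13.3 and 8.73 against 29.7, 47.4 and 30.5 (1.75 ± 0.35). In these members every miR-290~295 library was above every Empty library. miR-7117-5p, miR-7079-3p, miR-7025-5p and miR-12185-5p had Empty means under 10 and so passed the minimum through the miR-290~295 group. Their log2 differences are therefore given as a description.

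miR-7687-5p stood at 133, 71.7 and 63.1 against 251, 190 and 255 (1.43, adjusted p = 0.00479). miR-7653-5p (1.64, adjusted p = 0.0101) and miR-5622-3p (1.40, adjusted p = 0.0152) rose too, with calls that were lost under some settings. The difference of miR-12185-5p was 1.87, and its call was lost without the miR290_3 library. Both arms of miR-7679 in an intron of Slfn9, a gene of the Schlafen family, rose by 1.32 (5p, adjusted p = 0.00849) and 1.35 (3p, adjusted p = 0.012), named after their values were seen, and the call of the 3p arm was lost with spike-in scaling. miR-5099 stood at 170894, 152814 and 132671 in Empty and 209776, 195506 and 214247 with miR-290~295, a log2 difference of 0.45 (adjusted p = 0.025) that became -0.04, and was not called, with spike-in scaling.

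miR-6238 stood at 10.1, 48.7 and 9.70 in Empty and 0, 1.03 and 0 with miR-290~295. The reads behind these values were 74 and 1 over the libraries of each group, and the group means were 22.8 and 0.344 normalized counts. No test is given, since miR-6238 passed the minimum mean through the Empty group alone. The Empty libraries were uneven, with E2 the highest.

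miR-3081-3p stood at 1281, 1362 and 1539 in Empty and 616, 643 and 512 with miR-290~295 (-1.24 ± 0.17, adjusted p = 0.000528). miR-3081-5p stood at 32.6, 30.1 and 31.0 against 7.42, 13.4 and 13.9 (-1.40 ± 0.34, adjusted p = 0.01). miR-7213-5p stood at 14.6, 22.1 and 17.5 against 3.18, 3.09 and 6.98 (-1.87 ± 0.43). It passed the minimum mean through the Empty group alone, so its difference is given as a description. Every miR-290~295 library was below every Empty library in these members.

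miR-3070-2-3p stood at 92.2, 84.1 and 58.2 against 37.1, 37.1 and 25.3 (-1.21 ± 0.28, adjusted p = 0.00897). miR-3070-5p, from the same hairpins, overlapped between the groups and was not called (-0.33). Of the 88 other kept miRNAs between Mir770 and Mir410, 0 were higher and 73 lower in this comparison, with a median of -1.05. miR-6950-5p (-1.31, adjusted p = 0.0224), miR-6239 (-1.21, adjusted p = 0.0412) and miR-6916-5p (-1.17, adjusted p = 0.0311) were lower with calls lost under several settings.

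The members on snoRNAs and the miR-3473 pair were not called in this comparison. miR-3535 stood at 6964, 10059 and 13871 in Empty and 6474, 7087 and 5593 with miR-290~295, a range that overlapped (-0.64, adjusted p = 0.0575). Of 8 members on annotated small RNAs 0 were called in either direction, against 16.7% higher and 22.3% lower over all miRNAs. The differences of miR-3473b and miR-3473e were -0.54 and -0.29. miR-5128, at 745, 547 and 586 against 928, 1005 and 1092, was higher by 0.70 (adjusted p = 0.0122), but by 0.21 and not called with spike-in scaling.

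**Figure D4:**
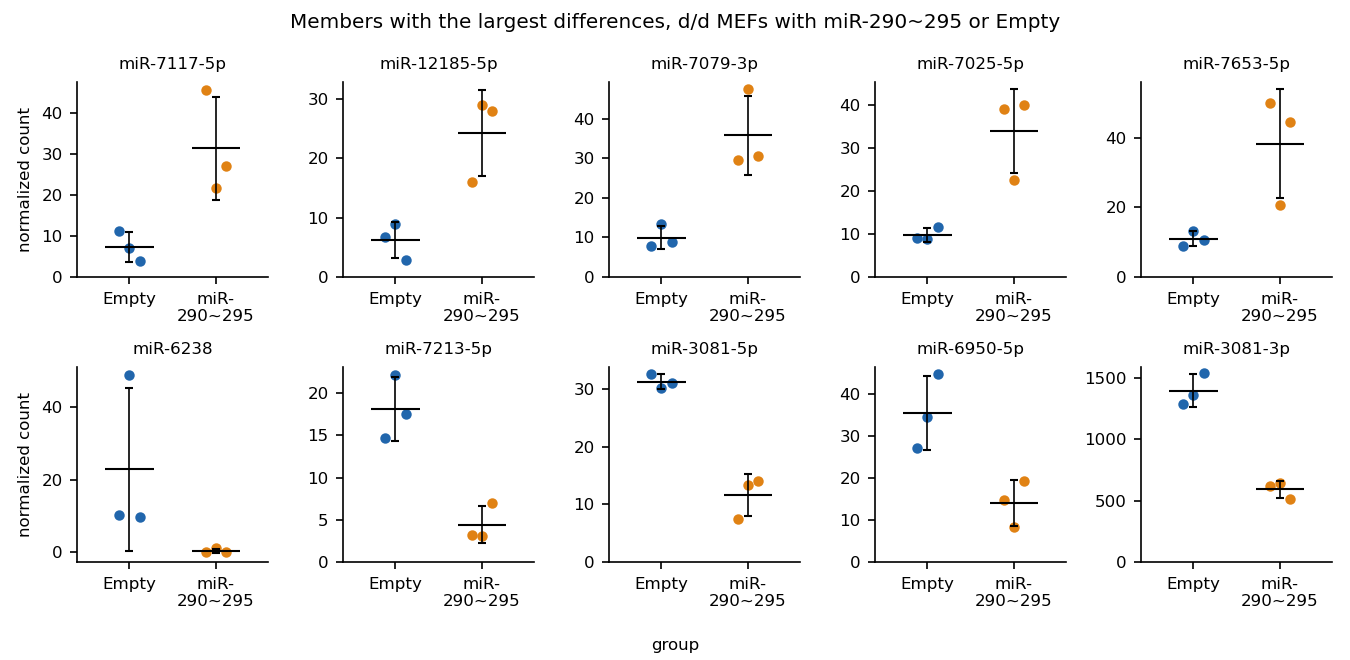
Normalized counts (linear axis, 1 point per library, lines at group means with SD bars, n = 3) of the members with the largest differences between d/d MEFs with the Empty plasmid and with miR-290~295. miR-7117-5p, miR-7079-3p and miR-7025-5p are higher with miR-290~295, and miR-3081-3p, miR-3081-5p and miR-7213-5p are lower, without overlap between the groups.

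Across the MEF comparisons the members' calls were fewer at low levels. Among miRNAs with a mean of 10 to 100, 5.61% of members and 30.7% of others were called in OV against fl/fl. In the next comparisons, in the order given above, the shares were 26.2% and 55.9%, 21.5% and 48.0%, and 15.8% and 30.3%. At means of 100 to 1000 the shares were 40.9% and 34.2%, 54.5% and 63.3%, 54.5% and 61.4%, and 31.5% and 48.6% in the same order. The median SE of the first comparison in the lowest stratum was 0.318 for members and 0.327 for others.

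Where both arms of a hairpin were kept, they could be read against each other. In the miR-17~92 set 12 hairpins had both arms among the members, and in the miR-290~295 set 27 had. Both arms were called the same way in 2, 0, 2 and 4 hairpins over the 4 comparisons, and in opposite directions in 0. These were miR-3068 and miR-3102 in OV against fl/fl, miR-3095 and miR-6952 in OV against d/d, and miR-3081, miR-3095, miR-7667 and miR-7679 with miR-290~295. With spike-in scaling the calls of miR-3095 in OV against d/d and of miR-7667 were lost. In the main fit only 1 arm was called in 0, 4, 5 and 7 hairpins over the 4 comparisons, and neither in 10, 8, 5 and 16. Hairpins of the other kept miRNAs were not counted. Of the mirtron-like members, 1 of 16 was higher and 0 lower in OV against fl/fl. In d/d against fl/fl 3 were higher and 1 lower, in OV against d/d 0 higher and 4 lower, and with miR-290~295 3 of 39 were higher and 1 lower. Over all miRNAs the shares higher and lower were 15.6% and 15.7%, 30.7% and 27.6%, 26.7% and 25.7%, and 16.7% and 22.3%. miR-3074-5p, which is transcribed from the strand opposite the miR-24 hairpins, was called in no comparison (0.10, -0.15, 0.25 and -0.10), beside values of 0.34, -0.28 and 0.62 for miR-24-3p in the 3 miR-17~92 comparisons.

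In splenic B cells miR-3535 was by far the most abundant member, and both arms of the Slamf7-hosted miR-7683 were several-fold higher in the d/d library. With 1 library per genotype no test is possible, and the intervals below cover counting error only. Of 104 members, 3 were at least 4-fold higher and 9 at least 4-fold lower in d/d than in fl/fl, against 8.40% and 6.09% of all 476 miRNAs. In OV 1 was at least 4-fold higher and 1 lower, against 1.26% and 1.26%. The median log2 difference was -0.34 for members and 0.05 for others in d/d, and -0.06 and 0.04 in OV.

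miR-7683-5p stood at 1011 normalized counts in the d/d library against 127 and 122 in fl/fl and OV, from 1273, 135 and 91 reads. The d/d library was 7.94-fold higher than fl/fl (95% interval 6.65 to 9.55). miR-7683-3p stood at 177, 19.8 and 24.1, a ratio of 8.94 (5.71 to 14.7). The arms of this hairpin thus had ratios with overlapping intervals. miR-3058-3p, from an intron of Nudt4, rested on 10, 1 and 17 reads in d/d, fl/fl and OV, with ratios to fl/fl of 8.42 (1.2 to 365) and 24.2 (3.79 to 1010). At 7.94, 0.94 and 22.8 normalized counts, it passed the minimum mean through the OV library alone. Its ratios are therefore given as a description. It was also the only member at least 4-fold higher in OV.

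miR-3535 stood at 27421 in the d/d library, 12391 in the fl/fl one and 20774 in the OV one. It was 2.21-fold higher in d/d (2.17 to 2.26) and 1.68-fold higher in OV (1.64 to 1.72), so the fl/fl library was the lowest of the 3, whereas fl/fl MEFs were the highest. The other members named for their mean level were closer between genotypes or lower in one library. miR-5114, which lies in the fatty acid desaturase gene Scd2, stood at 187, 516 and 607 in d/d, fl/fl and OV, and miR-8114 at 236, 602 and 256. miR-3074-5p stood at 666, 696 and 439, miR-5099 at 360, 565 and 576, miR-6399 at 359, 436 and 622, and miR-3066-5p at 387, 404 and 362. miR-3068-5p stood at 441, 330 and 217 and miR-3068-3p at 360, 325 and 308. The arms of miR-3068 thus differed less between these libraries than miR-5114 or miR-8114.

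The members low in d/d B cells included 3 of the 5 miR-3473 names among the B cell members. miR-3473b stood at 19.8, 141 and 114 in d/d, fl/fl and OV, 7.12-fold lower in d/d than in fl/fl. miR-3473e stood at 11.9, 74.5 and 16.1, 6.25-fold lower in d/d and 4.63-fold lower in OV. miR-3473a stood at 8.73, 38.7 and 21.4, 4.43-fold lower in d/d. The d/d library was the lowest for these 3. miR-3473d and miR-3473g had ratios of 0.775 (0.533 to 1.13) and 0.772 (0.413 to 1.44), whose intervals include 1, and miR-5128, with the same 9-base run, stood at 167, 202 and 150.

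The Lta mirtron miR-6974-5p stood at 1.59, 20.7 and 10.7 (13.1-fold lower in d/d, on 2 reads against 22). miR-7033-5p, at 1 end of a short intron of the nuclear pore gene Pom121, stood at 7.94, 83.9 and 24.1 (10.6-fold lower). miR-5107-5p stood at 24.6, 133 and 104 (5.40-fold lower). The remaining 3 of the 9 were miR-3086-5p, miR-8118 and a second full-length mirtron, miR-7068-3p in Cherp, at 5.04-fold, 4.12-fold and 4.04-fold lower. miR-7670-3p had the same values as miR-598-3p in each B cell library, with a mean of 13.1.

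Signs of other cells moved between these 3 libraries as well. The summed fibroblast list took 5.63%, 4.15% and 2.47% of counts in d/d, fl/fl and OV, nearly all of it miR-21a-5p. The fibroblast marker miR-143-3p stood at 5266, 1303 and 1088 normalized counts, miR-199a-3p at 1496, 341 and 367, and miR-214-3p at 25.4, 5.66 and 4.02, so all 3 were highest in d/d. Of the 5 markers of B cells and blood, miR-150-5p, miR-155-5p and, narrowly, miR-142a-3p were lowest there. In contrast, miR-142a-5p was highest in d/d, and miR-181a-5p lay between fl/fl and OV. The summed share of this list was 2.18%, 1.72% and 1.35% in d/d, fl/fl and OV, so it was highest in d/d. The neural miRNA miR-9-5p stood at 1132, 16619 and 11983 normalized counts, and the myeloid miR-223-3p at 15.9, 0 and 1.34. The part of these shifts in the members' ratios was not tested, and library and genotype cannot be told apart.

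**Figure D5:**
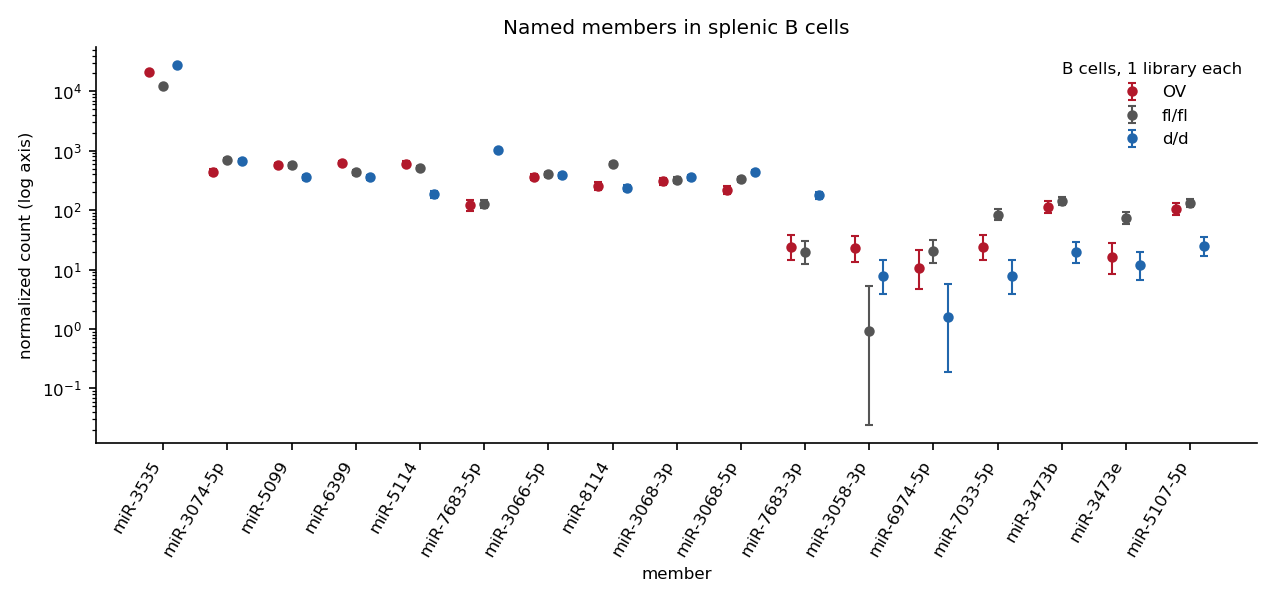
Normalized counts (log axis, 1 point per library with its 95% Poisson interval) of named members in splenic B cells that were d/d, fl/fl or OV. miR-7683-5p and miR-7683-3p are higher in d/d, and miR-3473b, miR-3473e, miR-7033-5p and miR-6974-5p are lower than in fl/fl.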

How the data were processed

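Small RNA of 18 mouse libraries was read after gel purification with an adapter kit and spike-ins, per the labels' protocols. The deposited values are normalized counts, a signal that the authors obtained by dividing whole reads by 1 size factor per library. Dividing by that factor's step gave back whole reads for all values (tolerance 0.0001). Per the submitters' processing notes DESeq2 was used, version not stated. Not given in the sources used here are the aligner, the annotation and the genome build. The 33 deposited columns of regularized log2 values were not used.

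Normalized counts were taken as log2(value + 1), with a mean of at least 10 over a set, and tested over all kept miRNAs with limma 3.58.1 (trend, R 4.3.3) and Benjamini-Hochberg adjustment at 0.05. The 9 libraries of the miR-17~92 MEF set shared 1 spread, and the 6 of the other set were fitted apart. Columns named OV and FL were mapped by group only. B cell values have exact 95% Poisson intervals, and their ratios exact binomial ones. Whole reads were also tested with edgeR 4.0.16 (quasi-likelihood) and DESeq2 1.42.0, and the scripts were tested on simulated data. Further alternatives were pseudocounts of 0.5 and 5, no minimum, spike-in scaling, re-centred medians, only the 2 groups compared, a replicate block and leaving out each library. Sequences and positions are RefSeq's for GRCm38.

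The members and lists were chosen with earlier results of these data known. Named are the 10 members with the highest mean in each set, up to 8 higher and 8 lower per MEF comparison with the largest log2 difference among called members whose groups do not overlap, and up to 5 per side with at least 4-fold in B cells. Also named are members with identical values, the 3 on each side of the minimum and neighbours within 10 kb.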

Additional observations from a re-analysis of the deposited data

Results flagged for a closer look

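Over both contrasts with fl/fl, 28 MEF calls without overlap belonged to members also kept in B cells. Of these, 8 went the same way in B cells, 11 had a B cell interval that included 1, and the 9 given here went the other way. Such cases were not counted among the other kept miRNAs, so these numbers do not set the members apart. For each of them the MEF groups did not overlap and the call passed limma's adjusted threshold, and the single B cell library lay on the other side of fl/fl with a counting interval that left out 1. The difference between the cell types was not tested, since B cells have 1 library per genotype.

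For d/d against fl/fl, miR-3068-5p had a log2 difference of -1.19 in MEFs and a ratio of 1.34 in B cells, and miR-3535 one of -0.63 and 2.21. In the other direction, miR-3091-3p had 0.88 in MEFs and a ratio of 0.491 in B cells, miR-6399 had 1.42 and 0.822, miR-7687-5p had 0.99 and 0.393, and miR-8114 had 0.84 and 0.391. The MEF calls of miR-3091-3p, miR-7687-5p and miR-8114 were lost with spike-in scaling. For OV against fl/fl, miR-3473e had 1.63 in MEFs and a ratio of 0.216 in B cells, miR-5128 had 1.16 and 0.744, and miR-3535 had -0.62 and 1.68.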

How the results depend on the processing

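Of the 62 differences named for MEFs, 44 kept their call under every alternative run and 0 reversed. Counts of called members moved with the scaling. With spike-in scaling 3 were lower in OV against fl/fl, and 7 were higher and 51 lower in d/d against fl/fl. In OV against d/d 67 were higher and 6 lower, and with miR-290~295 11 were higher and 27 lower. The calls of all kept miRNAs moved too. Of 662, 44 were lower in the first comparison, 147 higher and 283 lower in the second, and 330 higher and 120 lower in the third. With miR-290~295, 56 of 840 were higher and 328 lower. With re-centred medians 13 members were lower in OV against fl/fl, 9 higher and 40 lower in d/d against fl/fl, and 9 lower in OV against d/d. Over all 662 miRNAs these counts were 153, then 162 and 245, and then 142. A call under all 3 scalings was required by a rule chosen after seeing the data. It left 3 members lower in OV against fl/fl, 7 higher in d/d against fl/fl, 6 lower in OV against d/d and 11 higher with miR-290~295. Spike-ins moved the median of all miRNAs by 0.14, -0.41, 0.55 and -0.48 in the 4 comparisons. Without a minimum mean 13 members were higher in OV against d/d and 6 lower with miR-290~295. With only the 2 groups compared 13 members were higher in OV against d/d.

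Leaving out 1 library gave 6 to 12 higher and 4 to 11 lower in OV against fl/fl, with 6 higher without FL5 and 11 lower without OV2. It gave 12 to 14 higher and 17 to 25 lower in d/d against fl/fl, with 17 lower without DEL1 or FL4. It gave 11 to 24 higher and 11 to 18 lower in OV against d/d, with 12, 13 and 11 higher without DEL1, DEL2 and OV4. With miR-290~295 it gave 17 to 49 higher and 5 to 10 lower, with 20, 21 and 17 higher without E2, miR290_1 and miR290_3, and 5, 7, 6, 7 and 6 lower without E2, E3, miR290_1, miR290_2 and miR290_3. edgeR called 12 and 5, 18 and 27, 22 and 16, and 36 and 13 members higher and lower in the 4 comparisons, and DESeq2 11 and 7, 17 and 26, 19 and 16, and 39 and 11.

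With the replicate number as a block, 34 members were higher and 10 lower with miR-290~295. Deviations of same-numbered libraries correlated at 0.28, 0.01 and -0.26, so the numbers are no evidence of pairing. No paired analysis was possible because the OV and fl/fl columns carry no replicate number of the labels in the miR-17~92 set. The members' median SE was 0.298 log2 units against 0.232 for other miRNAs in the miR-17~92 set.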

Other observations

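miR-3963 varied most within groups among the abundant members. In the Empty libraries it stood at 2417, 323 and 237 normalized counts, and with miR-290~295 at 1604, 288 and 488. miR-3968 stood at 1201, 1945 and 1500 in the same Empty libraries, so the high E1 value of miR-3963 was not shared by it.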
